A study of Mus musculus with 7 samples.

Results

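A module of 30 genes of pancreatic digestive enzymes and zymogen proteins was followed through RNA-seq libraries of isolated mouse pancreatic islets. They were found by their symbols among the 55487 genes of a count table, and all 30 were present. The table held 7 libraries in 2 groups. Traf6 KO had 3 libraries (Traf6 KO 1 to 3) and control had 4 (the libraries labelled control 1 to 4). All mice, of both genotypes, received a 60% high-fat diet for 15 weeks, and the islets were kept in culture medium for 24 hours before RNA was taken. The series describes the knockout as specific to beta cells, the insulin-producing cells of the islet. The driver of the knockout and the age, sex and litter of the mice are not given in the labels. Each library carries its own tag of a letter and a number. The p-values below measure the spread between these libraries.

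Digestive enzymes are made by acinar cells, which form the exocrine pancreas around the islets, and are stored as inactive zymogens in granules. In the gut, enteropeptidase cleaves trypsinogen to trypsin, and trypsin then activates chymotrypsinogens, proelastases and procarboxypeptidases, while lipases, amylase and ribonuclease act on fat, starch and RNA. Islet endocrine cells secrete hormones instead, and isolation by digestion is known to leave some acinar cells with the islets.

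Libraries held 22104256 to 29917292 counts. Levels are given in CPM, the count scaled to the total of the same library, and shares as a percentage of counts. Traf6, the targeted gene, had 7.37, 11.4 and 19.6 CPM in Traf6 KO 1 to 3, against 17.1, 33.3, 27.8 and 16.2 CPM in the libraries labelled control 1 to 4, a log2 difference of −0.40 ± 0.22 (SE, edgeR, Benjamini-Hochberg adjusted p = 0.416). After scaling by trimmed mean of M-values (TMM), Traf6 had 14.7, 15.3 and 14.5 CPM in Traf6 KO 1 to 3. The libraries labelled control 1 to 4 had 17.9, 25.5, 22.1 and 12.6 CPM on that scale. The rise of Traf6 from Traf6 KO 1 to 3 was thus seen on plain totals only. None of the 7 libraries had less Traf6 after TMM scaling than the library labelled control 4. On plain totals that library stood above Traf6 KO 1 and 2 and below Traf6 KO 3. The genotypes overlapped in Traf6 on both scales, so its level cannot check the labels. Islet RNA was present in every library: the 2 insulin genes took 5.07, 6.42 and 10.3% of counts in Traf6 KO 1 to 3, against 16.2, 18.05, 20.5 and 17.9% in the libraries labelled control 1 to 4. Xist, which is transcribed in female cells, reached 569 CPM in Traf6 KO 3 and stayed under 1 CPM elsewhere.

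The 30 genes took very different shares of the libraries. Together they held 55.2, 42.2 and 1.59% of all counts in Traf6 KO 1 to 3, against 19.9, 0.471, 0.448 and 3.18% in the libraries labelled control 1 to 4. The highest share was 123 times the lowest, and both genotypes contained libraries with high and with low shares, so the groups overlapped. Counting error alone was small, with exact 95% binomial intervals no wider than 0.0415 percentage points. On the log10 scale the share averaged −0.81 ± 0.86 in Traf6 KO and −1.72 ± 0.79 in control (SD, n = 3 and n = 4). The difference of 0.91 was about as large as the SD within each group, and since the genes were chosen as a list no p is given for their sum. In bulk RNA, a different number of acinar cells and a different amount of RNA per acinar cell cannot be told apart. The mitochondrially encoded genes took 0.921, 1.53 and 3.40% of counts in Traf6 KO 1 to 3, against 1.504, 1.94, 1.97 and 3.23% in the libraries labelled control 1 to 4. The part of RNA quality in these shares was not tested. For every insulin count there were 10.9, 6.58 and 0.155 counts of the 30 genes in Traf6 KO 1 to 3, against 1.23, 0.0261, 0.0218 and 0.177 in the libraries labelled control 1 to 4.

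**Figure D1:**
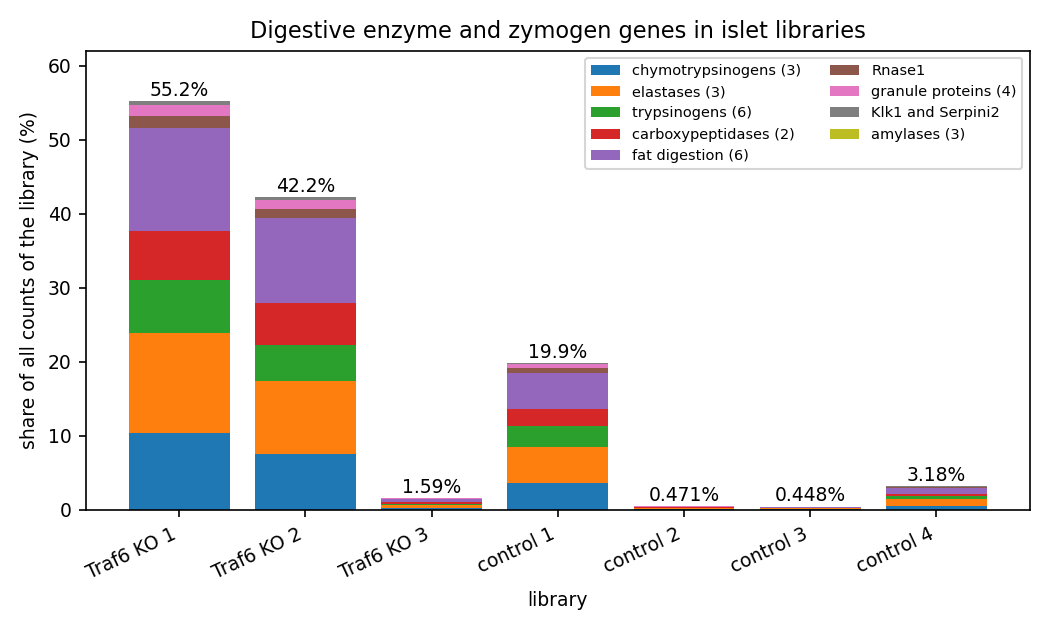
Share of all counts of each library (%, vertical axis) taken by the 30 genes, stacked by enzyme class, with the Traf6 KO libraries left and the control libraries right. The bars reach 55.2 and 42.2% in Traf6 KO 1 and 2 and 19.9% in control 1, and the other 4 libraries stay at or below 3.18%.

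The genes moved together from library to library. All 30 had their highest CPM in Traf6 KO 1, and all 30 had the same 3 highest libraries, Traf6 KO 1, Traf6 KO 2 and the library labelled control 1. For 19 of them the full order of the 7 libraries was that of the sum: Traf6 KO 1, Traf6 KO 2, control 1, control 4, Traf6 KO 3, control 2, control 3. In 9 others (Cela1, Cel, Cela3b, Prss2, Pnliprp1, Rnase1, Clps, Zg16 and Sycn) only the last 2 places were exchanged, and in Prss3 and Prss1 the library labelled control 1 stood above Traf6 KO 2. The highest level of a gene was 31.7 to 1936 times its lowest, with a median of 128. Spearman's rho between a gene and the sum of the other 29 over the 7 libraries was 0.929 or higher. These points share the library and its depth, so rho is given as a description.

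**Figure D2:**
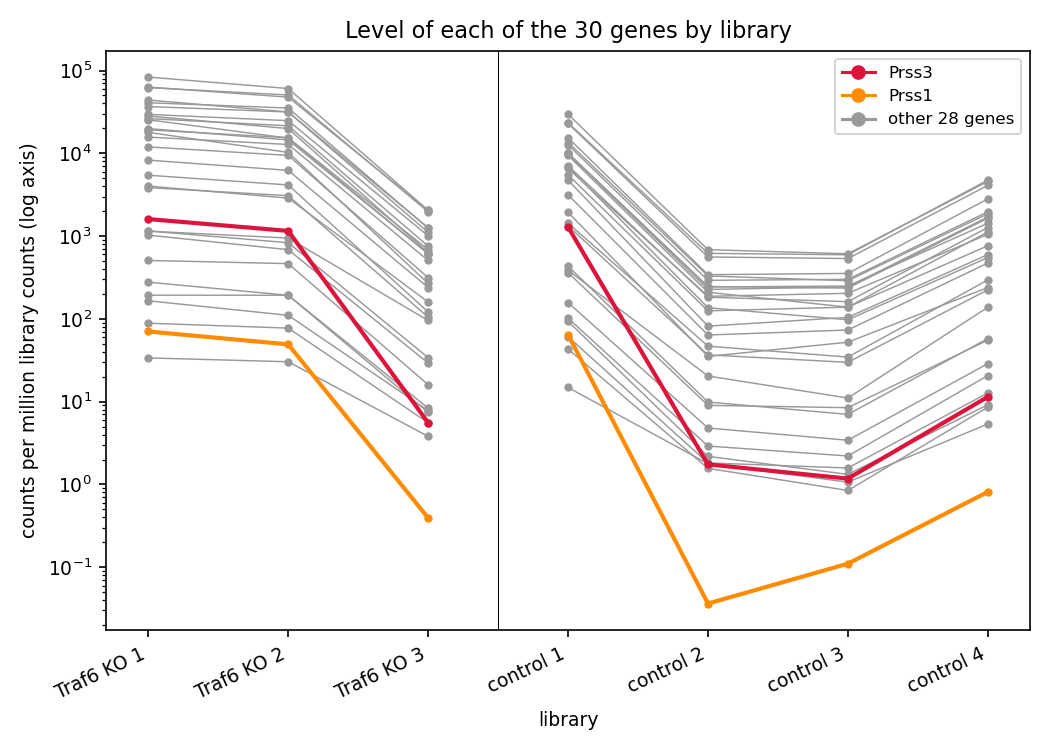
Level of each of the 30 genes (CPM, log axis) in the 7 libraries, Traf6 KO left and control right, with lines that only join the points of 1 gene within a genotype. The lines run nearly parallel, while Prss3 and Prss1 drop further than the rest in the 4 libraries with low levels.

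Trypsinogens, the zymogens that start the activation cascade, made up 9.83 to 13.9% (median 11.5%) of the 30-gene counts over the 7 libraries. All 6 lie in 1 cluster on chromosome 6 (coordinates throughout are GRCm38, GENCODE M21). Prss2 (ENSMUSG00000057163, chr6:41521787-41525079, plus strand) had the highest level of them per kilobase of exon in every library. It had 26268, 21496 and 756 CPM in Traf6 KO 1 to 3, against 9870.1, 243, 249 and 1429 CPM in the libraries labelled control 1 to 4. Try4 (chr6:41302269-41305532, plus strand) had 25429, 15255 and 611 CPM in Traf6 KO 1 to 3, against 9434, 209.7, 138 and 1121 CPM in the libraries labelled control 1 to 4. Try5 (chr6:41311233-41316841, minus strand) had 17909, 10259 and 268 CPM in Traf6 KO 1 to 3, against 6851, 136, 97.4 and 549 CPM in the libraries labelled control 1 to 4. Each of these 3 genes was highest in Traf6 KO 1 and lowest in the library labelled control 2 or control 3, and the groups overlapped. Try4 and Try5 share part of their sequence: 19.0% of the 151-base windows of Try4 transcripts and 16.5% of those of Try5 occur also in the other gene, so reads may have been divided between them. Try10 stayed lower, at 7.40 to 278 CPM in Traf6 KO and 1.32 to 93.3 CPM in control.

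Prss3 and Prss1, trypsinogens between Try10 and Prss2 in the cluster, did not keep step with the other 28 genes. Prss3 (ENSMUSG00000071519, chr6:41373814-41377678, minus strand) had counts of 35486, 28974 and 127 in Traf6 KO 1 to 3, against 38453, 48, 32 and 253 in the libraries labelled control 1 to 4. For every 100 counts of Prss2 in the same library, Prss3 had 6.11, 5.37 and 0.736 in Traf6 KO 1 to 3, against 13.0, 0.718, 0.472 and 0.799 in the libraries labelled control 1 to 4. Its ratio to Prss2 was thus highest in the library labelled control 1, next in Traf6 KO 1 and 2, and below 1 per 100 in each of the other 4 libraries of both genotypes. Prss1 (ENSMUSG00000062751, chr6:41458932-41463786, plus strand) had counts of 1556, 1234 and 9 in Traf6 KO 1 to 3, against 1927, 1, 3 and 18 in the libraries labelled control 1 to 4. Its ratio per 100 Prss2 counts was 0.268, 0.229 and 0.0521 in Traf6 KO 1 to 3, against 0.653, 0.0150, 0.0442 and 0.0568 in the libraries labelled control 1 to 4. The order of the high libraries was that of Prss3, and the values in the libraries labelled control 2 and 3 rest on 1 and 3 counts. In contrast, Try4 held 55.6 to 96.8 and Try10 0.531 to 1.06 counts per 100 of Prss2 over all 7 libraries.

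Gm5771 and Gm10334, neighbours outside the 30 genes, chosen after their values were seen, had the pattern of Prss3. Gm5771 (chr6:41392356-41397230, plus strand), an annotated protein-coding gene of the cluster, had counts of 23389, 16333 and 20 in Traf6 KO 1 to 3, against 25122, 1, 3 and 44 in the libraries labelled control 1 to 4. Gm10334 (chr6:41442216-41446145, minus strand) had counts of 922, 829 and 2 in Traf6 KO 1 to 3, against 1631, 4, 1 and 8 in the libraries labelled control 1 to 4. Both were high in the same 3 libraries as Prss3, and low in Traf6 KO 3 and the libraries labelled control 2 to 4. Of the 151-base windows of Prss3 transcripts, 31.0% occur also in another gene, most of them in Gm10334, as do 3.51% of those of Prss1. How reads were divided between these copies was not tested. At the other end of the cluster, 2210010C04Rik, also outside the 30 genes and chosen after its values were seen, had a steady ratio of 78.6 to 102 counts per 100 of Prss2. 1810009J06Rik, further out at that end and likewise chosen, did not keep step with Prss2. Its counts per 100 of Prss2 were 0.166, 0.0499 and 0.0116 in Traf6 KO 1 to 3, against 0.147, 0.284, 0 and 0.0568 in the libraries labelled control 1 to 4. It had 2 counts in Traf6 KO 3 and 0 in the library labelled control 3.

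**Figure D3:**
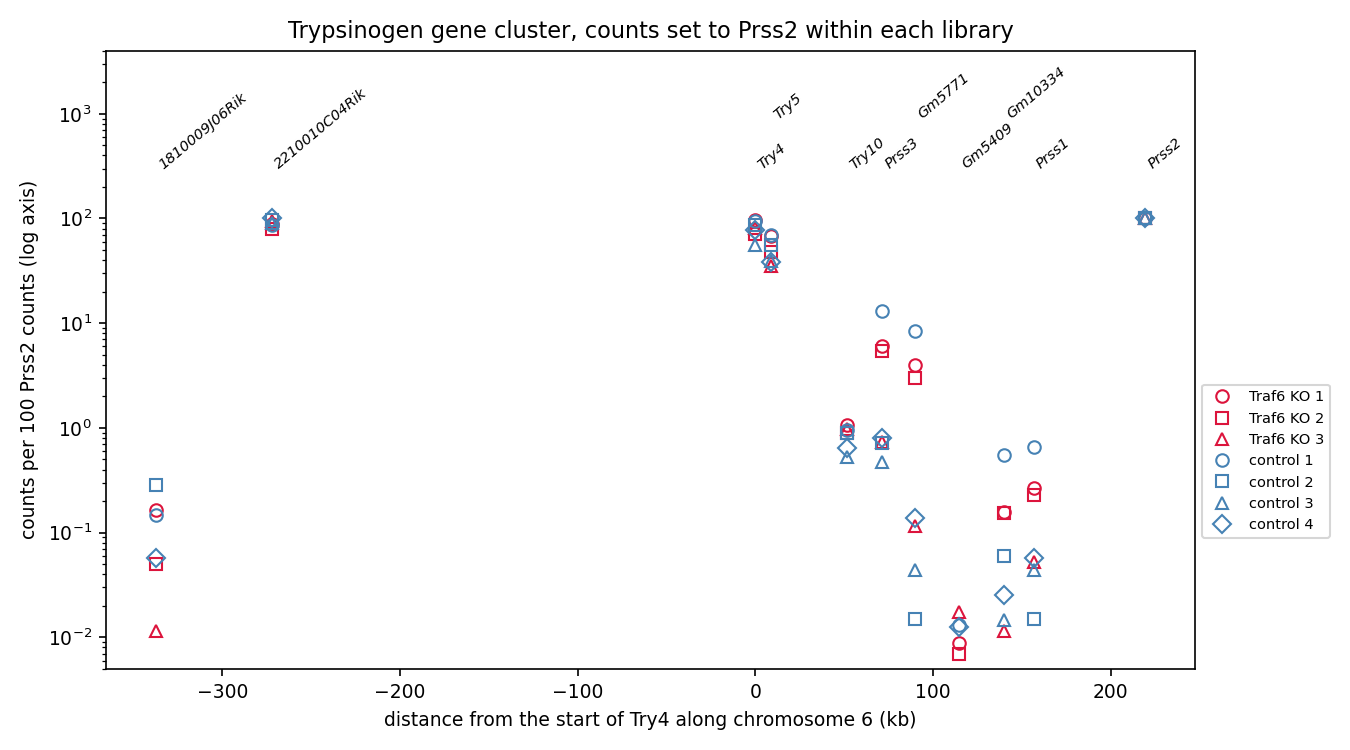
Counts per 100 Prss2 counts in the same library (log axis) for 11 genes of the trypsinogen cluster, placed by distance from the start of Try4 (kb), with Traf6 KO libraries in red and control libraries in blue. Counts of 0 are not drawn. Prss3 spans 0.472 to 13.0 and Gm5771 0.0150 to 8.51, whereas Try4 spans 55.6 to 96.8.

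The 250 bases before the annotated start of Prss3 and Prss1, which stood apart, of Gm5771, which had the pattern of Prss3, and of Prss2, which followed the other genes, are shown 5′ to 3′ on each gene's strand (RefSeq, GRCm38.p6). They lie at chr6:41377614-41377863 (minus strand), chr6:41458680-41458929, chr6:41392106-41392355 and chr6:41521526-41521775 (all plus strand). Capitals mark 3 motifs. The first is CACCTG on either strand, an E-box that the acinar factor complex of PTF1A and RBPJL is known to bind. The second is TTTCCC on either strand, the TC-box bound by the same complex. The last is TATAAA, the core of the TATA box.
Prss3: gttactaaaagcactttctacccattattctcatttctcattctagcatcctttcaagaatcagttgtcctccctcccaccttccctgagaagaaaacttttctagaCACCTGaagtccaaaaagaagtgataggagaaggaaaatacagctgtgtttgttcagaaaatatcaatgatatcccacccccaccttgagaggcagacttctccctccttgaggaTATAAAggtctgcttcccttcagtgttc
Prss1: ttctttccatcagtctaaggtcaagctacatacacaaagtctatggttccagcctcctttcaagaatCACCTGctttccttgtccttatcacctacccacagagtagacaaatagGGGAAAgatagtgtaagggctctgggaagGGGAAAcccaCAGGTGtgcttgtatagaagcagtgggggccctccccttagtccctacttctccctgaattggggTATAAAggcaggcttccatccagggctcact
Gm5771: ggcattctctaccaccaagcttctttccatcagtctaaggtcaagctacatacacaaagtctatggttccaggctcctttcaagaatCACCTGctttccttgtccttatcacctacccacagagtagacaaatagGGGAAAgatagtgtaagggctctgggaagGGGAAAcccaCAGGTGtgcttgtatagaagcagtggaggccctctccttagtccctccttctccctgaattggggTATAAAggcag
Prss2: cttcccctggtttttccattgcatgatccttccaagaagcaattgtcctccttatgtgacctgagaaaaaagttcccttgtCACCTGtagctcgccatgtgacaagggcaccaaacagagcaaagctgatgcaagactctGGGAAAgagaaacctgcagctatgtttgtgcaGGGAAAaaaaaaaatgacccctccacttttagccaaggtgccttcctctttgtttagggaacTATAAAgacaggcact
The E-box and TATA box letters occur in all 4 windows, and the TC-box letters in those of Prss1, Gm5771 and Prss2, each time on the reverse strand. Over the 300-base RefSeq windows, which add 50 bases after the start, Prss1 and Gm5771 were identical at 97.5% of 280 aligned bases, and Prss3 and Gm10334 at 96.8% of 283. Prss3 and Prss1, which moved together, were identical at 71.2%, and Prss3 and Prss2 at 74.7%.

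Among all 30 genes, 25 had a RefSeq promoter entry, with 26 windows. Ctrc, Zg16, Clps, Try5 and Try10 had none. The E-box letters were found on either strand in the 250 upstream bases of 14 of the 26 windows (53.8%), against 17.2% of all 32851 RefSeq windows of that length. The TATA box letters were found on either strand in 11 (42.3%), against 12.4% of all windows. The TC-box letters were found on either strand in 7 (26.9%), against 21.9%, and they stood together with the E-box letters in 5 (19.2%), those of Cel, Cela1, Cela2a, Prss1 and Prss2, against 3.61%. CAAGGTCA, the letters that the acinar receptor NR5A2 is known to bind, was found on either strand in 2 (7.69%), those of Cel and Klk1, against 1.33%. Some windows belong to copies of 1 gene cluster, and a match of letters is a description, not a binding site.

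Chymotrypsinogens, which trypsin activates, made up 16.8 to 18.7% (median 18.4%) of the 30-gene counts. Ctrb1 (ENSMUSG00000031957, chromosome 8, 111686519 to 111691010) encodes chymotrypsinogen B and had the highest level of the 30 per kilobase of exon in every library. It had 83365, 60614 and 2052 CPM in Traf6 KO 1 to 3, against 29612, 685, 611 and 4567 CPM in the libraries labelled control 1 to 4. Scaled to exon length, that was 94949, 69037 and 2337 CPM per kilobase in Traf6 KO 1 to 3, against 33727, 781, 696 and 5201 CPM per kilobase in the libraries labelled control 1 to 4. Ctrl, which encodes a chymotrypsin-like protease, had 19894, 14504 and 613 CPM in Traf6 KO 1 to 3, against 7090.1, 183, 161 and 1269 CPM in the libraries labelled control 1 to 4. Both genes were high in Traf6 KO 1, Traf6 KO 2 and the library labelled control 1. Ctrc, chymotrypsin C, which is known to cleave trypsinogen, had 7.79 to 165 CPM in Traf6 KO and 1.58 to 60.9 CPM in control. It overlaps Cela2a on the same strand of chromosome 4, and 10.2% of its 151-base windows occur also in Cela2a.

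Elastases, proteases that cut elastin and other proteins, made up 23.5 to 29.2% (median 24.7%) of the same sum, with the highest value in the library labelled control 4. Cela2a (chr4:141814962-141826160, minus strand) had 63088, 47688 and 2041 CPM in Traf6 KO 1 to 3, against 23420.5, 619, 595 and 4744 CPM in the libraries labelled control 1 to 4. Cela1 (chr15:100674421-100687921, minus strand) had 44004, 31637 and 1263 CPM in Traf6 KO 1 to 3, against 15413, 342, 354 and 2812 CPM in the libraries labelled control 1 to 4. Cela3b (chr4:137420999-137430540, minus strand) had 28224, 19903 and 633 CPM in Traf6 KO 1 to 3, against 9979, 227, 243 and 1701 CPM in the libraries labelled control 1 to 4. All 3 genes ran down the libraries together, and none separated the genotypes. Of the 30-gene counts, Cela2a took 11.4, 11.3 and 12.8% in Traf6 KO 1 to 3, against 11.8, 13.2, 13.3 and 14.9% in the libraries labelled control 1 to 4, so its share was largest in the library labelled control 4 and smallest in Traf6 KO 2. Only 0.858% of the windows of Cela3b occur also in Cela3a.

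Carboxypeptidases, which remove amino acids from the end of a peptide, made up 11.0 to 13.3% (median 12.0%) of the same sum. Cpa1 (chr6:30639218-30645363, plus strand), carboxypeptidase A1, had 36756, 31564 and 1110.3 CPM in Traf6 KO 1 to 3, against 13504, 330.1, 289 and 1860.4 CPM in the libraries labelled control 1 to 4. Cpb1 (chr3:20248264-20275733, minus strand), carboxypeptidase B1, had 29517, 24796 and 1005 CPM in Traf6 KO 1 to 3, against 10083, 246, 235 and 1643 CPM in the libraries labelled control 1 to 4. In both, Traf6 KO 3 stood below the libraries labelled control 1 and control 4.

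Enzymes and cofactors of fat digestion made up 24.5 to 27.3% (median 25.2%) of the same sum. Pnlip (chr19:58652498-58681788, plus strand), pancreatic triglyceride lipase, had 62162, 50675 and 1967 CPM in Traf6 KO 1 to 3, against 22933, 559, 535 and 4102 CPM in the libraries labelled control 1 to 4. Cel (chr2:28555795-28563403, minus strand), the bile salt-stimulated carboxyl ester lipase, had 40815, 35246 and 1246 CPM in Traf6 KO 1 to 3, against 12677, 292, 300.1 and 1966 CPM in the libraries labelled control 1 to 4. Clps (chr17:28558149-28560766, minus strand), colipase, which anchors pancreatic lipase to fat droplets, had 11952, 9429.7 and 315 CPM in Traf6 KO 1 to 3, against 4737, 81.7, 104 and 597 CPM in the libraries labelled control 1 to 4. The 3 genes shared the high libraries, and in Cel and Clps the library labelled control 3 stood above that labelled control 2. Pnliprp1, a lipase-related protein next to Pnlip on chromosome 19, had 19204, 15444 and 685 CPM in Traf6 KO 1 to 3, against 6571, 187, 203 and 1049 CPM in the libraries labelled control 1 to 4. Pnliprp2, its neighbour and a lipase of galactolipids, had 105 to 3852 CPM in Traf6 KO and 29.8 to 1331 CPM in control. Pla2g1b, the secreted pancreatic phospholipase A2, had 29.2 to 1027 CPM in Traf6 KO and 7.02 to 433 CPM in control.

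Amylases, which split starch and are a main product of the exocrine pancreas, were low. The 3 genes together made up 0.0571, 0.0712 and 0.111% of the 30-gene counts in Traf6 KO 1 to 3, against 0.0805, 0.133, 0.0918 and 0.109% in the libraries labelled control 1 to 4. No library of either genotype had a high amylase share, and the groups overlapped. Amy2b, a pancreatic amylase, had 8.36 to 193 CPM in Traf6 KO and 2.20 to 102 CPM in control. Amy2a5, another pancreatic amylase, had 5.56 to 88.7 CPM in Traf6 KO and 0.845 to 43.2 CPM in control. Amy1, known as the amylase of salivary gland and liver, had 33.7, 30.3 and 3.81 CPM in Traf6 KO 1 to 3, against 14.8, 1.78, 1.07 and 5.37 CPM in the libraries labelled control 1 to 4. Amy1 and Amy2a5 had the lowest levels per kilobase of the 30 after Prss1 by the median over libraries. Of the 151-base windows of Amy2a5, 41.7% occur also in other amylase copies, as do 3.85% of those of Amy2b, and 29.7% of those of Amy1 occur in transcripts annotated to Rnpc3. The levels of these genes depend on how such reads were assigned, which was not tested.

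Rnase1, pancreatic ribonuclease, had 15691, 12788 and 508 CPM in Traf6 KO 1 to 3, against 5487, 125, 139 and 764 CPM in the libraries labelled control 1 to 4. Its levels were highest in Traf6 KO 1 and 2, and the groups overlapped. The 4 granule proteins made up 2.73 to 3.24% (median 2.90%) of the 30-gene counts. Zg16, a lectin of the zymogen granule, had 8274, 6223 and 239 CPM in Traf6 KO 1 to 3, against 3143, 63.8, 73.3 and 472 CPM in the libraries labelled control 1 to 4. Sycn, syncollin of the granule membrane, had 5438, 4148 and 121 CPM in Traf6 KO 1 to 3, against 1943, 35.2, 52.2 and 239 CPM in the libraries labelled control 1 to 4. These 3 genes followed the sum except that the library labelled control 3 stood above that labelled control 2. Gp2, the main glycoprotein of the granule membrane, had 1148, 946 and 95.7 CPM in Traf6 KO 1 to 3, against 386, 20.4, 11.1 and 138 CPM in the libraries labelled control 1 to 4. It had the library order of the sum, with the library labelled control 3 lowest. Cuzd1, a granule protein with CUB and zona pellucida-like domains, had 1152, 832 and 34.0 CPM in Traf6 KO 1 to 3, against 362, 9.02, 8.45 and 55.4 CPM in the libraries labelled control 1 to 4. Klk1, tissue kallikrein, had 160 to 4019 CPM in Traf6 KO and 34.5 to 1434 CPM in control. Serpini2, a serine protease inhibitor of acinar cells, had 508, 465 and 16.0 CPM in Traf6 KO 1 to 3, against 158, 4.80, 3.42 and 28.7 CPM in the libraries labelled control 1 to 4.

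Dividing each gene by the 30-gene sum of its library removes the library's overall level and any scaling factor. On this measure the make-up was close to fixed: 5 genes (Ctrb1, Pnlip, Cela2a, Cela1 and Cel) held 52.4 to 57.3% of the 30-gene counts in each library, and 14 genes held 92.1 to 93.2%. The highest share of a gene was a median of 1.37 times its lowest, and 24 of the 30 spanned less than 2-fold. The other 6 were Prss1 (42.0-fold), Prss3 (24.7-fold), Amy1 (6.20-fold), Gp2 (3.09-fold), Amy2a5 (2.18-fold) and Try5 (2.05-fold). The lowest count behind these shares was 1 for Prss1, in the library labelled control 2. In that labelled control 3, the lowest counts were 23 for Amy2a5, 29 for Amy1 and 32 for Prss3. This limits the precision of the spans of Prss1 and Prss3. The span of Amy1 rests on 746 counts in Traf6 KO 1 and 49 in the library labelled control 2. That of Amy2a5 rests on 1960 counts in Traf6 KO 1 and 127 in Traf6 KO 3. Prss3 took 0.291, 0.273 and 0.0349% in Traf6 KO 1 to 3, against 0.647, 0.0371, 0.0262 and 0.0360% in the libraries labelled control 1 to 4. Gp2 took 0.208, 0.224 and 0.601% in Traf6 KO 1 to 3, against 0.195, 0.434, 0.247 and 0.434% in the libraries labelled control 1 to 4. Amy1 took 0.00611, 0.00718 and 0.0239% in Traf6 KO 1 to 3, against 0.00748, 0.0379, 0.0238 and 0.0169% in the libraries labelled control 1 to 4. In Traf6 KO 1, Traf6 KO 2 and the library labelled control 1, where the 30 genes took most counts, the shares of 2 genes (Prss3 and Prss1) were above all those in the other 4 libraries. The shares of 5 genes (Cela2a, Klk1, Gp2, Ctrc and Amy1) were below them, with 11.3 to 11.8% for Cela2a beside 12.8 to 14.9% in the other 4, and those of 23 genes overlapped. These libraries were set apart by their measured counts, so this is a description. When the 6 trypsinogens were summed to 1 value, 3 spanned 2-fold or more, and within the 3 libraries that had at least 20 counts in every gene, 2 did.

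Cel, Cpb1 and Cuzd1 had shares of the 30-gene counts that did not overlap between the genotypes, all higher in Traf6 KO, and none was lower in all Traf6 KO libraries. Cel took 7.39, 8.35 and 7.83% in Traf6 KO 1 to 3, against 6.39, 6.21, 6.69 and 6.19% in the libraries labelled control 1 to 4. Its mean was 7.86 ± 0.477% in Traf6 KO and 6.37 ± 0.233% in control (SD, n = 3 and n = 4). Cpb1 took 5.35, 5.87 and 6.32% in Traf6 KO 1 to 3, against 5.08, 5.23, 5.25 and 5.18% in the libraries labelled control 1 to 4, with means of 5.85 ± 0.487% in Traf6 KO and 5.18 ± 0.0751% in control. In Cpb1 the gap between Traf6 KO 1 and the library labelled control 3 was smaller than the spread within Traf6 KO. Cuzd1 took 0.197 to 0.214% in Traf6 KO and 0.175 to 0.192% in control. Over all 16203 genes tested, 0.0309% did not overlap upwards and 0.037% downwards on the same measure. Genes outside the list carry the 123-fold range of the sum when divided by it, so these percentages are no baseline for the 30 genes. With 3 libraries against 4, the smallest p that an exact two-sided permutation test can give for such a separation is 0.0571. Of 15 other acinar secretory genes, 0 did not overlap in either direction. No test was made on these shares.

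**Figure D4:**
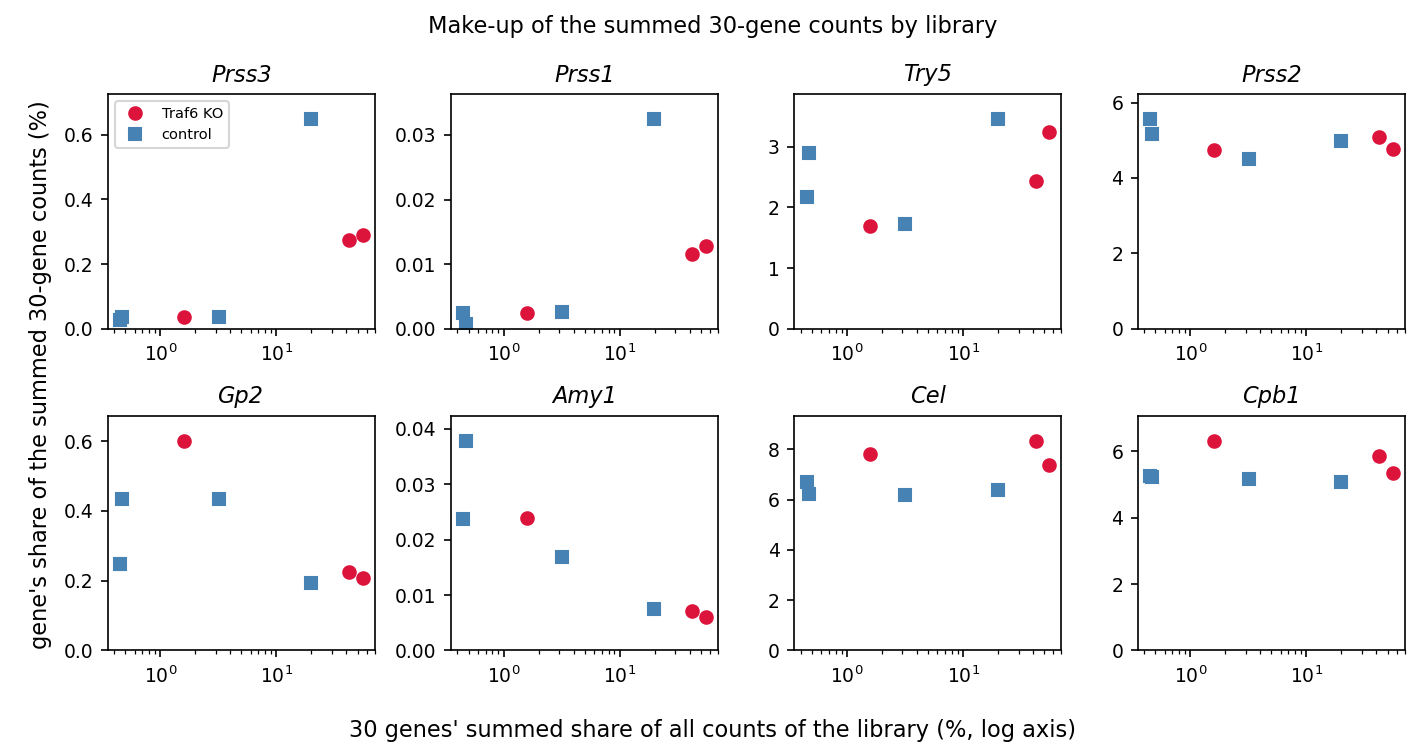
Share of 8 genes in the summed 30-gene counts of a library (%, vertical axes from 0) against the 30-gene share of all counts (%, log axis), 1 point per library. Prss3 and Prss1 are high only in the 3 libraries at the right, of which control 1 is the highest, Gp2 and Amy1 are low there, and Cel and Cpb1 are higher in all 3 Traf6 KO libraries than in the 4 control libraries.

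The genotype comparison over all genes asked whether any of the 30 differed between Traf6 KO and control. With edgeR's quasi-likelihood F test on TMM-scaled counts, 0 of the 30 genes passed a Benjamini-Hochberg adjusted p of 0.05 over 16203 genes tested, as did 0% of all genes. All 30 passed the filter on low counts. Their adjusted p ran from 0.304 to 0.680 in edgeR's test. Amy1 alone was below 0.05 before adjustment (edgeR quasi-likelihood, unadjusted p = 0.0455, adjusted p = 0.304). Of all tested genes, 8.81% were below 0.05 before adjustment and higher in Traf6 KO, and 7.17% were so and lower. limma-voom called 0 of the 30 and 0 of all genes, and the DESeq2 Wald test called 0 of the 30 while it called 489 genes higher and 255 lower in Traf6 KO.

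All 30 log2 fold changes (Traf6 KO over control) were above 0, as were 50.7% of all genes tested. Their median was 3.20, against 0.01 over all genes, and the range was 2.02 to 3.51 with SE of 1.16 to 2.43. Because the 30 genes share the order of the libraries, these values repeat 1 arrangement of 7 libraries. Ctrb1 was at 3.23 ± 1.77 on the log2 scale (± SE, edgeR adjusted p = 0.402) and Pnlip at 3.20 ± 1.72 (edgeR adjusted p = 0.391). Serpini2, at 3.51 ± 1.65, was the highest (edgeR adjusted p = 0.343), and Amy1, at 2.75 ± 1.16, had the smallest SE (edgeR adjusted p = 0.304). Prss3 and Prss1 had the lowest values, 2.23 ± 2.43 (edgeR adjusted p = 0.680) and 2.02 ± 2.10 (edgeR adjusted p = 0.662). Exact two-sided permutation tests took each gene's log2(TMM-scaled CPM + 0.01) over all 35 ways to assign the labels. These permutation tests gave p from 0.171 to 0.343, where the smallest possible p is 0.0571. In none of the 30 did the groups separate, whereas on TMM-scaled CPM 5.58% of all genes were higher and 8.68% lower in every Traf6 KO library than in every control library. On CPM of plain library totals, 0.759% were higher and 10.2% lower in this way.

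**Figure D5:**
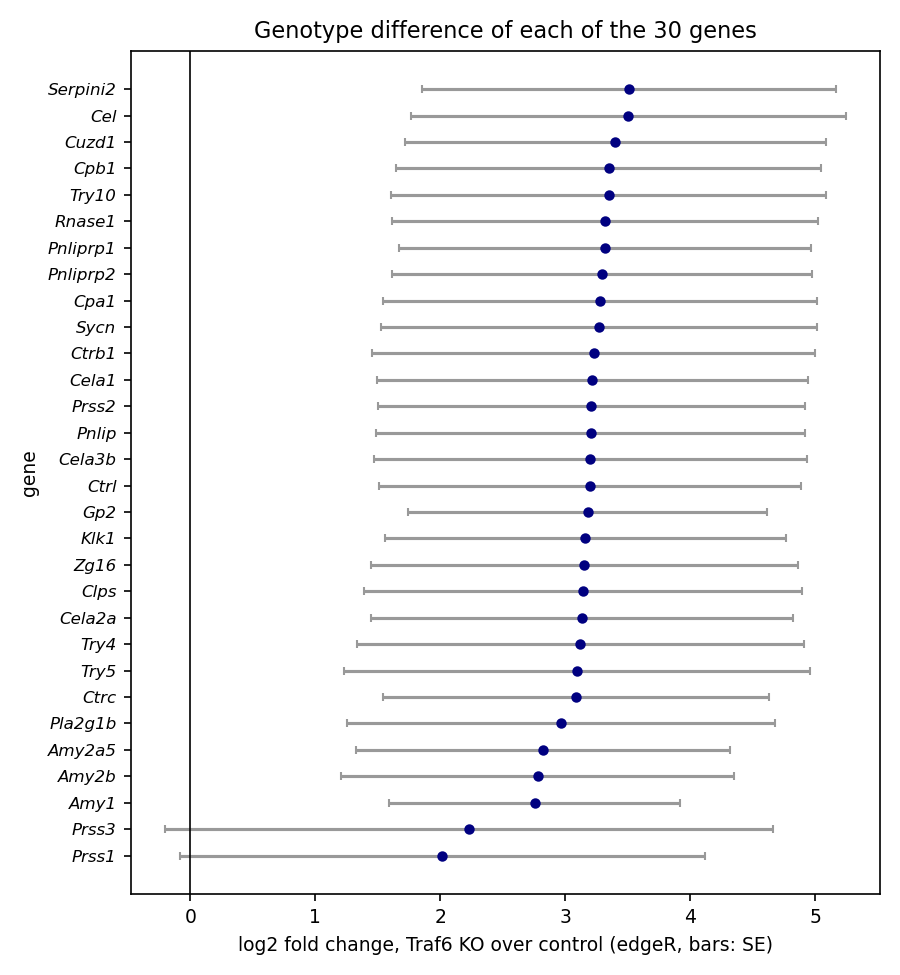
Log2 fold change of each of the 30 genes, Traf6 KO over control, from edgeR, with bars of 1 SE on each side. All points lie between 2.02 and 3.51, and the bars of Prss3 and Prss1 reach across 0.

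The size of the difference rested on single libraries. Without the library labelled control 1 the median log2 fold change of the 30 genes was 5.80, and without Traf6 KO 1 it was 2.24. Without the library labelled control 4, which had the lowest Traf6 level after TMM scaling, the median was 2.96. Without Traf6 KO 3, which also differs from the rest in sex by Xist, it was 3.77, and 0 of the 30 genes passed although 568 genes were then called higher. The library tags start with Q in Traf6 KO 1 and 2 and the libraries labelled control 1 and 2. They start with R in the library labelled control 3, and with S in Traf6 KO 3 and that labelled control 4. What the letter stands for is not given. Among the S-tagged pair the 30-gene share was lower in Traf6 KO, at 1.59% against 3.18%, and among the Q-tagged libraries it was higher, at 55.2 and 42.2% against 19.9 and 0.471%. The median log2 fold change was 2.54 with a term that set S against Q and R together. It was 3.53 in the Q- and R-tagged libraries alone, and 0 of the 30 genes passed in both fits. On plain library totals the median was 2.42, while the median of all genes was −0.46. When the mean TMM-scaled level of the acinar transcription factors was added to the fit, all 30 log2 fold changes were below 0. Their median was then −1.05, and 0 of the 30 genes passed.

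Genes that accompany the 30 in acinar cells were read from lists. All 15 tested acinar secretory genes outside the 30 had log2 fold changes above 0, with a median of 3.09 and 0 called by edgeR. Their summed level was 32082, 24754 and 1295 CPM in Traf6 KO 1 to 3, against 10788, 362, 314 and 1918 CPM in the libraries labelled control 1 to 4, which is the library order of the 30 genes. The 10 acinar transcription factors were all above 0 as well on the TMM scale, with a median of 2.42 and 0 called. Their summed level was 874, 839 and 530 CPM in Traf6 KO 1 to 3. It was 547, 484, 444 and 410 CPM in the libraries labelled control 1 to 4. The sum had a much narrower range than that of the enzymes, but outside Traf6 KO 1 its largest part was Xbp1. Some single factors ranged widely, Ptf1a from 0.147 to 31.7 CPM and Rbpjl from 2.65 to 314 CPM. On plain CPM, not all factors followed the enzymes from library to library. Gata6, a GATA factor, had 11.2, 14.9 and 36.4 CPM in Traf6 KO 1 to 3, with its highest level in Traf6 KO 3. It had 12.1, 18.9, 12.6 and 18.4 CPM in the libraries labelled control 1 to 4. After TMM scaling Gata6 had 22.3, 20.1 and 26.9 CPM in Traf6 KO 1 to 3. The libraries labelled control 1 to 4 had 12.7, 14.5, 10.0 and 14.4 CPM on that scale. The groups then did not overlap, as for 5.58% of all genes tested in this direction (edgeR adjusted p of Gata6 = 0.176). Xbp1, a factor of the secretory pathway, had 263, 306 and 358 CPM in Traf6 KO 1 to 3, against 261, 318, 308 and 269 CPM in the libraries labelled control 1 to 4. Creb3l1, chosen after its values were seen, had 29.2, 40.1 and 49.2 CPM in Traf6 KO 1 to 3, against 46.8, 59.0, 49.3 and 43.2 CPM in the libraries labelled control 1 to 4, so that on plain CPM its highest level was in a control library. After TMM scaling, Xbp1 had 526, 413 and 265 CPM in Traf6 KO 1 to 3, and Creb3l1 had 58.4, 54.1 and 36.4 CPM. In the libraries labelled control 1 to 4, Xbp1 then had 273, 244, 246 and 210 CPM. Creb3l1 had 49.0, 45.2, 39.2 and 33.8 CPM there. On that scale both were highest in Traf6 KO 1 and 2 and the library labelled control 1, like the enzymes. Other factors had the high libraries of the enzymes on plain CPM as well. Nr5a2, a nuclear receptor that drives acinar genes, had 18.01, 22.6 and 1.93 CPM in Traf6 KO 1 to 3, against 6.92, 1.49, 1.10 and 1.94 CPM in the libraries labelled control 1 to 4. Ptf1a and Rbpjl, the pair that forms the acinar activating complex, were chosen after their values were seen. Ptf1a had 31.7, 20.8 and 1.66 CPM in Traf6 KO 1 to 3, against 10.1, 0.764, 0.147 and 0.902 CPM in the libraries labelled control 1 to 4. Rbpjl had 314, 224 and 12.5 CPM in Traf6 KO 1 to 3, against 98.5, 3.45, 2.65 and 18.005 CPM in the libraries labelled control 1 to 4. Both were highest in Traf6 KO 1 and 2 and the library labelled control 1, like the enzymes.

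Genes of granule release and of the response to secretagogues did not follow as a list: of 17 tested, 13 had log2 fold changes above 0 and 4 below, with a median of 0.25 and 0 called by edgeR. Cckar, the cholecystokinin receptor that triggers enzyme release, had 136, 104 and 5.38 CPM in Traf6 KO 1 to 3, against 37.6, 4.73, 1.62 and 9.30 CPM in the libraries labelled control 1 to 4, which resembles the enzymes in its high libraries.

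Markers of other cell types also differed in level between the libraries. Their log2 fold changes are on TMM-scaled counts, whereas their sums are CPM on plain library totals. Such totals include the 30 genes, which took 55.2 and 42.2% of counts in Traf6 KO 1 and 2, and this lowers the CPM of all other genes there. The 10 islet endocrine genes were all below 0, with a median of −0.41 and 0 called, and their sum was 76076 to 181663 CPM in Traf6 KO, against 233647 to 281814 CPM in control. The median log2 fold change was 0.52 for 11 ductal genes (sum 1000.4 to 1722 CPM in Traf6 KO, against 1111 to 1139 CPM in control, Tff1 at 0), and 1.40 for 8 stellate and fibroblast genes (30.01 to 155 CPM in Traf6 KO, against 37.1 to 82.9 CPM in control). It was −0.21 for 7 endothelial genes (161 to 478 CPM in Traf6 KO, against 384 to 546 CPM in control) and −0.55 for 8 myeloid genes (93.7 to 207 CPM in Traf6 KO, against 188 to 529 CPM in control). It was 1.07 for 6 lymphocyte genes (22.2 to 589 CPM in Traf6 KO, against 10.9 to 77.6 CPM in control), with 589 CPM in Traf6 KO 3. None of these lists had a called gene. The part of these cell types in the levels of the 30 genes was not tested.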

How the data were processed

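The data are raw counts by gene as deposited, without normalization, in 1 table with a column for each of 7 libraries (100% of values are whole numbers). The submitters' processing notes list STAR 2.6.1b, RSEM 1.3.1, FastQC and GRCm38 without saying how each was used. If the counts are RSEM output that was rounded, reads of similar genes were split between them by a model. For the annotation, the strand setting and any gene filter, the entry is: not given in the sources used here. Per the labels' protocols, libraries were read in paired 151 bp cycles, and a tissue DNA kit is named for the RNA. Without a strand setting, overlapping and antisense genes cannot be told apart.

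The 30 members were matched by symbol and all matched GENCODE release M21 (55141 of 55487 identifiers matched). The members, gene lists and tests were chosen with earlier results of these data known. Groups came from the genotype in the labels. No 2 libraries agreed within sampling noise (lowest chi-square per gene 21.8 over 21 pairs, genes with at least 20 counts), so each counted as 1 replicate. CPM was computed on the plain library total unless TMM scaling is named. TMM factors, used in the fit, were 0.500, 0.740 and 1.35 in Traf6 KO 1 to 3 and 0.954, 1.30, 1.26 and 1.28 in the libraries labelled control 1 to 4.

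The test was edgeR 4.0.16's quasi-likelihood F test, run in R 4.3.3 (TMM, filterByExpr minimum count 10, minimum total 15, genotype alone in the model), with Benjamini-Hochberg adjustment over all genes tested and a threshold of 0.05. The SE of a fold change was derived from the F statistic. The scripts were checked on simulated counts. Alternatives were DESeq2 1.42.0 size factors and Wald test, limma 3.58.1 voom, plain totals, factors without the members and other filters. Further ones left out each library, or added a replicate block, a term for tag letter S against Q and R together, or a covariate. That covariate was the mean log2(CPM + 1) of 10 acinar transcription factors, on TMM-scaled CPM. It was 6.03, 5.45 and 3.35 in Traf6 KO 1 to 3, against 4.43, 2.95, 2.82 and 3.21 in the libraries labelled control 1 to 4. Sharing of sequence was counted in 151-base windows of GENCODE M21 transcripts. Levels per library were printed for the 14 members with the largest mean share of counts, for members outside the common library order, and for members whose shares did not overlap. The others were given by range, with levels of Gp2, Amy1 and Serpini2 added after their values were seen.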

Additional observations from a re-analysis of the deposited data

Results flagged for a closer look

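The share of Prss3 in the summed counts of the 30 genes stood out in the control group. It was 0.647% in the library labelled control 1, whereas the libraries labelled control 2 to 4 had 0.0371, 0.0262 and 0.0360%. The gap to the nearest of these was 0.892 of the whole range on the log2 scale, above Dixon's 95% critical value for 4 samples. Traf6 KO 1 to 3 had 0.291, 0.273 and 0.0349%. The flag was the only one among 61 values of 4 control libraries examined, and chance flags about 1 in 20 such groups.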

How the results depend on the processing

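In all 18 alternatives of the genotype fit, 0 of the 30 genes passed the threshold. The lowest adjusted p of any of them was 0.0744 (edgeR), in the fit with the acinar transcription factor covariate, where all fold changes were below 0. In the other fits the lowest was 0.0893 (edgeR, without Traf6 KO 3). Every gene had a log2 fold change above 0 in 17 alternatives, all but the covariate for acinar transcription factors. The mean TMM-scaled level of these factors itself differs between the libraries. Under that covariate the median of the 30 was −1.05, with Ctrb1 at −1.20, Pnlip at −1.02, Serpini2 at −0.79, Gp2 at −0.24, Amy1 at −0.45, Prss3 at −3.22 and Prss1 at −4.75. The cause was not tested. Leaving out 1 library at a time gave medians of 2.24 to 5.80. The difference in mean log10 share kept its direction in all alternatives tried, at 0.63 to 1.48. The number of genes whose share of the 30-gene counts spanned 2-fold or more was 6. It was 3 with the trypsinogens summed and 2 in the 3 libraries with at least 20 counts in every gene, which leaves 4 libraries out. Leaving out each library in turn, an alternative chosen after seeing the data, gave 5 to 6.

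Replicate numbers 1 to 3 are shared by the genotypes. Deviations of same-numbered libraries from their group means correlated at 0.60, −0.18 and 0.45, so the numbers were not taken to pair the libraries. A fit with the replicate block, without the library labelled control 4, gave a median of 3.45 with 0 of the 30 genes passing, against 2.96 without the block. Over all genes the block fit called 5 and the fit without it 0. The lowest count of any of the 30 genes was 9 in Traf6 KO 3 and 1 and 3 in the libraries labelled control 2 and 3, so ratios of Prss1 there are uncertain.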
